A study of Mus musculus with 24 samples.

Results

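Rasa1, Nf1, Sos1, Sos2, Nras, Braf and Ksr2 are 7 genes of the Ras and Raf signalling route. They were taken by gene symbol from the 23881 genes of the mRNA table of mouse visual cortex, and all 7 were among the 13927 genes with a mean of at least 0.5 RPKM that were tested. RPKM is the number of reads on a gene scaled by its exon length and by all mapped reads of the library.

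The study asked how the microRNAs miR-132 and miR-212 shape the transcripts of the visual cortex as it matures. Its groups were P28-KO, mice at postnatal day 28 with a deletion of the miR-132 and miR-212 locus in every cell of the body, P28-wt, wild type littermates of the same age, and P10-wt, wild type mice at postnatal day 10. All were of the C57BL6J strain, and both sexes were used. Each group had 4 long-RNA libraries, named here as replicates 1 to 4 of their group, with numbers that only name them. In 4 of the 12 libraries Xist and a Y-linked gene, Ddx3y, each exceeded 1 RPKM, so although the study counts mice as its replicates, whether each library holds a single animal was not settled here, and p-values measure the spread between libraries. The samples include no mutant at day 10, so the effect of the deletion cannot be compared between ages. A deletion in the whole body and throughout life does not separate the cortex from other tissues or one age from another.

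Ras proteins are small switches that are on when bound to GTP and off when bound to GDP. Exchange factors (GEFs) such as Sos1 and Sos2, which are brought to the membrane by growth factor receptors, load them with GTP, and GTPase-activating proteins (GAPs) such as Rasa1 and neurofibromin, the product of Nf1, make them hydrolyse it. Active Ras recruits the Raf kinases, Braf among them, which phosphorylate the MEK kinases and through them ERK, with KSR proteins as scaffolds that hold Raf and MEK together. In the cortex this route carries signals from neurotrophins and synaptic activity to the nucleus and to dendritic spines.

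Mature microRNAs of the deleted locus, all but miR-132-5p, are shown first because the seed, bases 2 to 8 of a microRNA, is the part that pairs with a messenger RNA. The sequences are from RefSeq on GRCm38.p6, the patch release of the mm10 build used for the data, with the seed in capitals. Both 3p arms have the same seed, so their 7-base sites cannot be told apart.
mmu-miR-132-3p: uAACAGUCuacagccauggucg
mmu-miR-212-3p: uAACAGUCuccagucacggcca
mmu-miR-212-5p: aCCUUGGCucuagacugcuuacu

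The genes lie on separate chromosomes of this build. Rasa1 spans chr13:85214699-85289486, Sos1 chr17:80393752-80480453, Sos2 chr12:69583761-69681852 and Braf chr6:39603237-39725463, all on the minus strand. Nf1 spans chr11:79339892-79581609, Nras chr3:103058285-103067914 and Ksr2 chr5:117414002-117767988, all on the plus strand, and Nf1 shares chromosome 11 with the deleted locus. The complement of the shared 3p seed, GACTGTT, was searched on the sense strand of the longest annotated 3′ UTR of each gene. It was found in 4 of the 7 genes, Rasa1, Sos1, Nras and Braf, against 12.3% of the 13123 tested genes with an annotated 3′ UTR. Rasa1 and Sos1 had 1 match each, at bases 470 and 750 of their 3′ UTRs of 1405 and 4429 bases. Nras had 2 matches close to the end of its 3727 bases, at bases 3616 and 3664, and Braf had 2 at bases 2928 and 5699 of 7145. The complement of the miR-212-5p seed, GCCAAGG, was in Ksr2 alone, at base 483 of 2433, against 12.2% of all, and that of miR-132-5p, CCACGGT, was in none of the 7, against 3.21%. Nf1 and Sos2 held no 7-base match to any of these arms. These are matches of letters in annotated 3′ UTRs, not measured binding. The study names Rasa1 and Sos1 among miR-132 targets, and the 7 genes were chosen with earlier results of these data known. The share of 4 in 7 is therefore a description and not a test. UTRs also differ in length, and the 7145 bases of Braf give more room for a match than the 1362 of Sos2. The 30 bases around each match are shown 5′ to 3′ on the strand of the gene, with the match in capitals, so that the sites can be read beside the levels of their transcripts.
Rasa1 chr13:85215616-85215645, minus strand: catgaccatttGACTGTTcactgactttct
Sos1 chr17:80397413-80397442, minus strand: tacgcttaggaGACTGTTcatctatgctag
Nras chr3:103067792-103067821, plus strand: tattttaagttGACTGTTtgattgtaaatt
Nras chr3:103067840-103067869, plus strand: aagacttgcttGACTGTTttccttgttaaa
Braf chr6:39607436-39607465, minus strand: caactatatagGACTGTTtttaaataagta
Braf chr6:39604665-39604694, minus strand: tgttgttttaaGACTGTTgaacccgtgtgt
Ksr2 chr5:117766035-117766064, plus strand: aaggcttctagGCCAAGGtcagggtaggga

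The deletion was checked on the transcripts of the locus itself. Mir132 was listed at 0 RPKM in all 4 P28-KO libraries, against 14.4, 9.74, 13.1 and 11.2 RPKM in P28-wt libraries and 0.130 to 1.19 RPKM in P10-wt libraries. Mir212 was likewise at 0 in all P28-KO libraries, against 13.96 to 24.7 RPKM in P28-wt and 0.372 to 1.43 RPKM in P10-wt. These reads come from long-RNA libraries and measure transcripts over the hairpins, not the mature microRNAs. Low RPKM values stepped in multiples that imply 18.2 to 91.6 M reads per library. By group the range was 31.5 to 91.6 M in P10-wt, 18.2 to 44.1 M in P28-wt and 23.6 to 35.3 M in P28-KO. Depth thus tended to be higher at day 10, and its part in the age differences was not tested. This estimate of depth rests on 54.1% to 59.5% of low values falling within 0.1 of a whole step where chance gives about 20%. At that depth the least covered value of the 7 genes, Ksr2 in P28-wt replicate 2, stood for about 61 reads, and each of the other 6 genes had at least 473 in every library. P28-wt replicate 2 stood apart on the second principal component (38.7, the other libraries lying between -20.6 and 12.5), and P10-wt replicate 1 on the first (-79.03, the other P10-wt libraries lying between -56.9 and -55.3). Markers of cortical excitatory neurons summed to 1212 to 1336 RPKM in P28-KO libraries, 1241 to 1420 RPKM in P28-wt and 417 to 587 RPKM in P10-wt, with 3 of the 5 markers called higher and 2 called lower in P28-wt than in P10-wt.

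Nras, which encodes one of the classical Ras proteins, had the highest mean level per length of the 7 genes in every group. It was at 13.6, 12.2, 13.4 and 13.7 RPKM in P28-KO libraries, at 11.9, 12.7, 11.8 and 13.0 RPKM in P28-wt libraries, and at 27.6, 26.3, 26.5 and 26.5 RPKM in P10-wt libraries. Every library of day 28 lay below every library of day 10, and P28-KO and P28-wt overlapped.

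Rasa1 encodes p120 RasGAP, a negative regulator that binds activated receptors through its SH2 domains. Its level was 10.0, 9.01, 9.51 and 10.3 RPKM in P28-KO libraries, 7.71, 7.95, 7.32 and 8.68 RPKM in P28-wt libraries, and 16.6, 13.3, 12.6 and 13.9 RPKM in P10-wt libraries. The 3 groups did not overlap, with P28-KO between P28-wt and P10-wt. Nf1, whose product is the other GAP of the set and is lost in neurofibromatosis type 1, had 7.96, 7.33, 8.76 and 9.27 RPKM in P28-KO libraries, 7.60, 7.64, 7.29 and 8.43 RPKM in P28-wt libraries, and 8.51, 8.68, 8.47 and 9.47 RPKM in P10-wt libraries. The P28-wt libraries lay just below those of P10-wt, and the P28-KO libraries spread over both.

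Sos1 and Sos2 are the paralogous exchange factors that Grb2 carries to receptors. Sos1 was at 5.93, 5.73, 6.29 and 6.44 RPKM in P28-KO libraries, at 5.27, 5.23, 4.99 and 5.92 RPKM in P28-wt libraries, and at 9.98, 7.96, 8.13 and 8.20 RPKM in P10-wt libraries. Sos2 was at 5.01, 5.30, 5.55 and 5.65 RPKM in P28-KO libraries, at 4.63, 4.63, 4.07 and 4.996 RPKM in P28-wt libraries, and at 6.73, 6.68, 6.38 and 6.53 RPKM in P10-wt libraries. Both were lower at day 28 in all libraries. For Sos1 P28-wt replicate 4 lay above 1 P28-KO library, whereas the Sos2 groups of day 28 were separated by a margin of 5.009 RPKM in P28-KO against 4.996 RPKM in P28-wt.

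Braf, the Raf kinase with the strongest activity towards MEK, was at 13.8, 11.6, 13.1 and 13.5 RPKM in P28-KO libraries, at 10.6, 10.5, 10.5 and 12.6 RPKM in P28-wt libraries, and at 10.9, 11.6, 11.7 and 11.7 RPKM in P10-wt libraries. The 3 groups overlapped, and P28-wt replicate 4 stood above the other P28-wt libraries. Ksr2, a scaffold of Raf and MEK with high expression in brain, was the lowest of the 7 genes in each group, at 2.27, 2.48, 2.51 and 2.66 RPKM in P28-KO libraries, at 1.90, 0.421, 1.20 and 2.22 RPKM in P28-wt libraries, and at 2.34, 2.26, 2.48 and 2.28 RPKM in P10-wt libraries. The P28-KO and P10-wt libraries shared a narrow range, while the P28-wt libraries were spread widely below it, with replicates 2 and 3 the lowest.

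**Figure D1:**
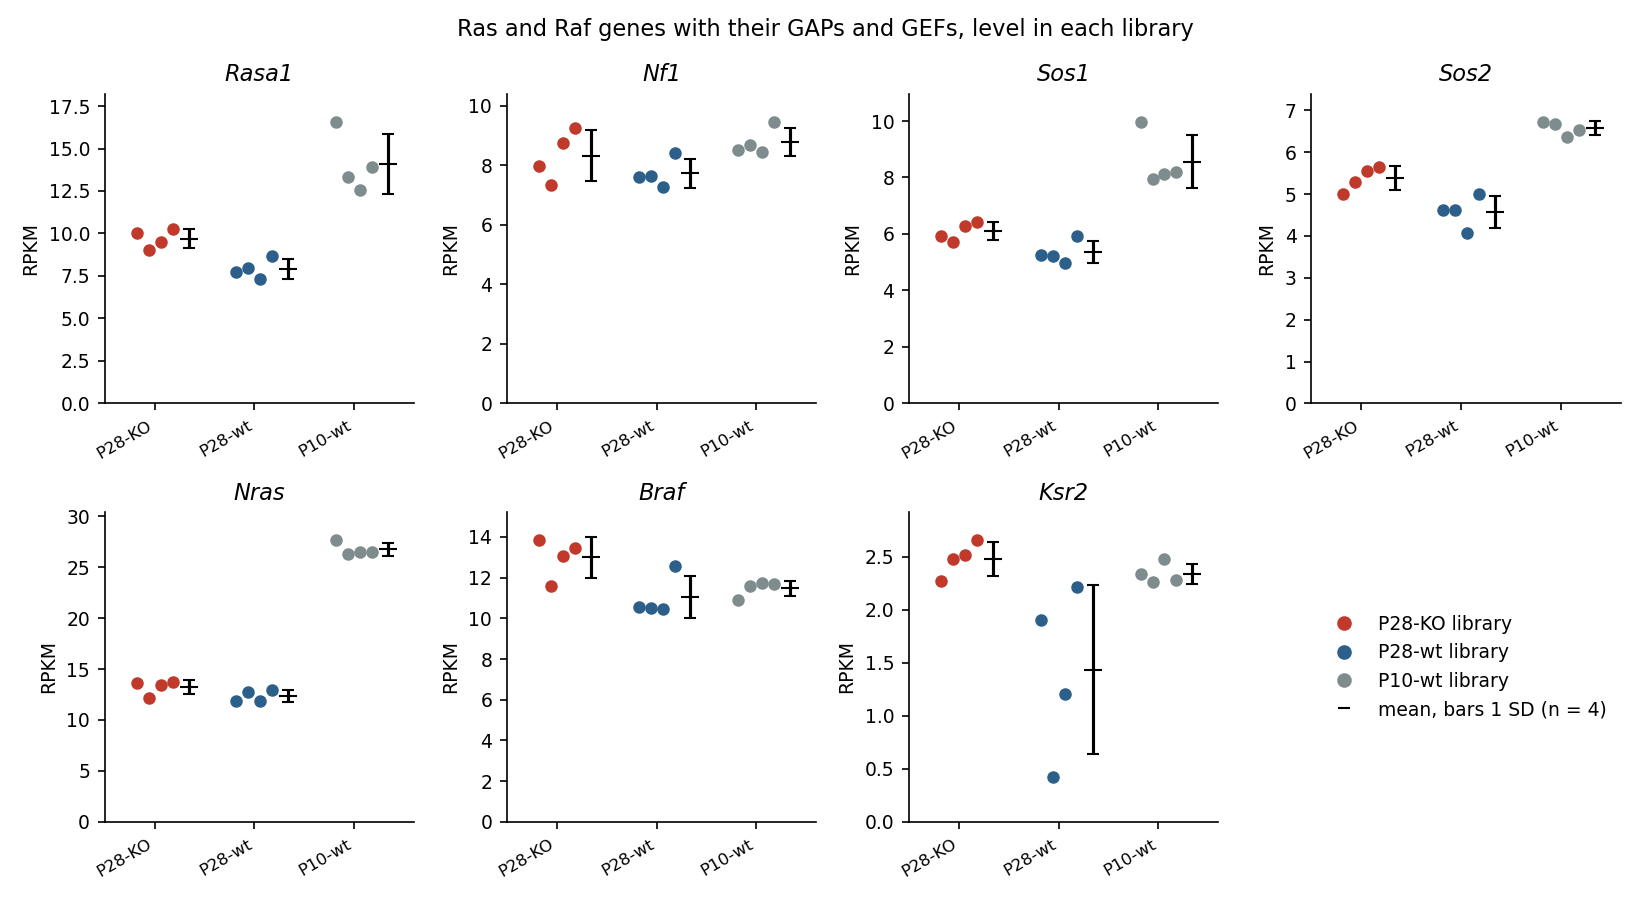
RPKM (vertical axes, from 0) of the 7 genes in each library of P28-KO, P28-wt and P10-wt, with 1 point per library and the mean with 1 SD (n = 4) as a bar to its right. Nras, Rasa1, Sos1 and Sos2 are lower in all day 28 libraries than in all P10-wt libraries, and the Ksr2 libraries of P28-wt reach down to 0.421 RPKM.

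The order of the mean levels was Nras, Braf, Rasa1, Nf1, Sos1, Sos2, Ksr2 in both groups of day 28. In P28-KO Nras (13.2 ± 0.727 RPKM) and Braf (11.6 to 13.8 RPKM) overlapped, as did Rasa1 (9.70 ± 0.558) and Nf1 (8.33 ± 0.856), while Sos1, Sos2 and Ksr2 each lay apart from their neighbours (SD, n = 4). In P28-wt Nras (12.3 ± 0.585 RPKM) and Braf (11.03 ± 1.03) overlapped, and so did Rasa1 (7.91 ± 0.570) with Nf1 (7.74 ± 0.486) and Sos1 (5.35 ± 0.396) with Sos2 (4.58 ± 0.383). In P10-wt the order differed in that Rasa1 (14.1 ± 1.74 RPKM) stood above Braf (11.5 ± 0.381), with Nras (26.7 ± 0.618) apart from both and Nf1 (8.78 ± 0.467) and Sos1 (8.57 ± 0.946) overlapping.

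To ask how the genes changed with age in normal cortex, P28-wt was compared with P10-wt. Nras, Rasa1, Sos1 and Sos2 fell, which are 4 of the 7 genes, against 31.2% of all genes tested that were called lower at an adjusted p under 0.05. None of the 7 was called higher, against 26.7% of all genes. The median log2 fold change of the 7 genes was -0.67, beside -0.05 over all genes. With 31.2% of tested genes called lower, a fall as such does not set these genes apart.

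Nras fell most, by 1.11 on the log2 scale (SE 0.07, limma adjusted p = 1.01e-06), which puts its P28-wt mean at 0.462 of its P10-wt mean. Rasa1 fell by 0.82 (SE 0.10, adjusted p = 6.5e-05 in limma) to a mean ratio of 0.562, with all 4 P28-wt libraries below all P10-wt libraries. Sos1 fell by 0.67 (SE 0.10, adjusted p = 0.000239) and Sos2 by 0.52 (SE 0.09, adjusted p = 0.000568), so that both exchange factors moved in the same direction as the GAP that opposes them.

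The other genes did not pass in limma. Nf1 differed by -0.18 (95% interval -0.36 to -0.003, adjusted p = 0.0753 in limma) and Braf by -0.06 (interval -0.24 to 0.12, adjusted p = 0.549). For Ksr2 the estimate was -0.87 with an interval of -1.73 to -0.01 (adjusted p = 0.0758), and without P28-wt replicate 2 it was -0.42. By the regularized test on RPKM that the study's methods name, rebuilt for these data with a posterior probability above 0.6 as its threshold, Nf1 and Ksr2 were called lower as well, which makes 6 of the 7 genes, against 39.4% of all genes. That threshold was looser here than the one used with limma. It called 5489 genes lower, where 4634 were lower at an unadjusted p under 0.05 by the same test. Nf1 passed it at 1 minus posterior 0.266 and Ksr2 at 0.0172. With no filter on low values limma also called Nf1 (adjusted p = 0.0453). The estimates for Braf and Nf1 changed with an adjustment for GC content and transcript length. Fold changes across genes correlated with the GC content of the transcript (r = 0.22 over 13879 genes, which are not independent) and less with its log2 length (r = -0.12). The 7 transcripts are 4470 to 11847 bases long, and 6 of them have a GC content of 42.6% to 44.7%, Ksr2 having 56.5%. When the trend on both was removed from each library, Braf was called higher (log2 fold change 0.34, adjusted p = 0.00174), beside 29.2% of all genes called higher in that fit, and Nf1 turned to 0.20 (adjusted p = 0.0526). Nras, Rasa1, Sos1 and Sos2 were still called lower, with smaller differences of -0.84, -0.56, -0.28 and -0.24. GC content and length were removed together, so their parts cannot be told apart.

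To ask what differed at day 28 without miR-132 and miR-212, P28-KO was compared with P28-wt. None of the 7 genes was called, in either direction. Across all genes limma called 0.00% higher and 0.0144% lower. The 2 genes called lower were Mir132 and Mir212 themselves. At an unadjusted p under 0.05, 594 genes were higher and 1130 lower. By that measure 4 of the 7 genes were higher (Rasa1, Ksr2, Braf and Sos2), against 4.27% of all genes, and 0 were lower, against 8.11%. The 7 genes were chosen with earlier results of these data known. This share and those given below for the mutant therefore describe the genes and are no test of the set.

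Rasa1 had the smallest p of the 7. Its P28-KO mean was 1.23 times that of P28-wt (log2 fold change 0.29, 95% interval 0.11 to 0.48, unadjusted p = 0.00535, adjusted p = 0.382 by limma). All 4 P28-KO libraries were above all P28-wt libraries, and the difference lay between 0.26 and 0.34 when any 1 library was left out. Ksr2 had the largest estimate, 0.95 (interval 0.11 to 1.79, adjusted p = 0.394 by limma), with P28-KO and P28-wt libraries not overlapping, but it was 0.50 without P28-wt replicate 2. Sos2 differed by 0.23 (interval 0.02 to 0.43, adjusted p = 0.394) and Braf by 0.24 (interval 0.03 to 0.44, adjusted p = 0.394). The groups did not overlap, with P28-KO higher, in 3 of the 7 genes (Rasa1, Sos2 and Ksr2), against 1.87% of all genes, and in 0 with P28-KO lower, against 3.62%. The margins were narrow for Sos2 (5.009 RPKM in P28-KO against 4.996 in P28-wt) and Ksr2 (2.269 against 2.219).

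For Sos1, whose 3′ UTR holds a match to the 3p seed, the difference was 0.19 (95% interval -0.01 to 0.38, adjusted p = 0.415 by limma). Nras, with 2 matches, differed by 0.10 (interval -0.07 to 0.26, adjusted p = 0.567) and Nf1, with none, by 0.10 (interval -0.11 to 0.31, adjusted p = 0.637). All 7 estimates were above 0, with a median of 0.23, beside -0.03 over all genes. The regularized test called Rasa1, Braf and Ksr2 higher at a posterior probability above 0.6, which is 3 of the 7 genes against 4.67% of all genes. It did not call Sos1 (1 minus posterior 0.558), which the study counts among targets that stay significantly raised in null mice. The rebuilt test thus departs from the study on Sos1. Rasa1, which it called, is also listed by the study among targets altered in the mutant. Limma called neither of these genes.

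The sizes of these small differences, and for Sos1 and Nf1 the sign, changed with the same adjustment. P28-KO and P28-wt fold changes correlated with GC content at r = -0.33 and with log2 length at r = 0.22 across 13879 genes. With the trend removed, Rasa1 kept 0.19 (95% interval 0.07 to 0.31, adjusted p = 0.324 by limma) and the groups still did not overlap, at 3.25 to 3.35 in P28-KO against 3.08 to 3.17 in P28-wt on the corrected log2 scale. Ksr2 kept 0.95 (interval 0.19 to 1.70). Sos2 came to 0.12, Braf to 0.03, Nras to 0.00, Sos1 to -0.00 and Nf1 to -0.11, each with an interval that spans 0. The Sos2 groups, apart before, then overlapped, at 2.36 to 2.57 in P28-KO and 2.26 to 2.41 in P28-wt. Of the myelin and oligodendrocyte markers 5 of 6 were lower in P28-KO at an unadjusted p under 0.05, their sum running from 1202 to 1548 RPKM in P28-KO against 1627 to 2341 RPKM in P28-wt. By the same measure 2 of 6 astrocyte, 2 of 5 endothelial and 2 of 3 striatal markers were higher, the other striatal marker being lower. None of these markers was called at an adjusted p under 0.05, and their part in the differences of the 7 genes was not tested. In bulk tissue fewer cells of a type and less RNA per cell cannot be told apart.

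**Figure D2:**
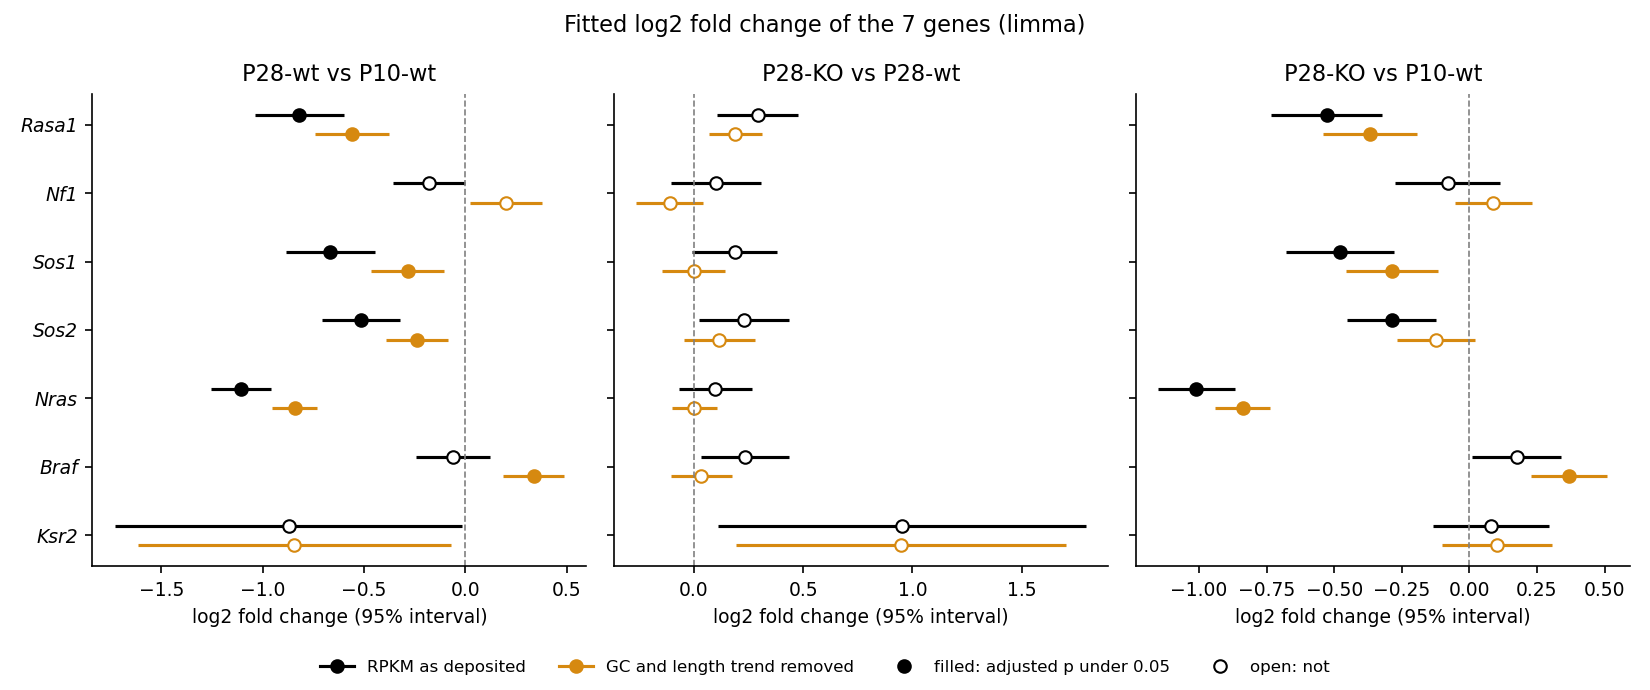
Log2 fold change (horizontal axes) with its 95% interval for the 7 genes in P28-wt over P10-wt, P28-KO over P28-wt and P28-KO over P10-wt, from RPKM as deposited (black) and after removal of the trend on GC content and transcript length (orange), filled where the adjusted p was under 0.05. In P28-KO over P28-wt no point is filled, and the orange points of Sos1, Nras and Braf lie at -0.00, 0.00 and 0.03.

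P28-KO was also set beside P10-wt, a pair in which age and genotype differ together and which shares its libraries with both comparisons above. Nras fell by 1.01 (SE 0.06, adjusted p = 8.95e-07 in limma), Rasa1 by 0.53 (adjusted p = 0.000655), Sos1 by 0.48 (adjusted p = 0.00103) and Sos2 by 0.29 (adjusted p = 0.00668). These 4 of the 7 genes stand against 33.6% of all genes called lower. Ksr2 differed by 0.08 (95% interval -0.14 to 0.30) and Nf1 by -0.08 (interval -0.27 to 0.12). Braf differed by 0.18 (interval 0.01 to 0.34, adjusted p = 0.0645) and none of the 7 was called higher, against 24.6% of all genes. Braf was called higher without P28-KO replicate 2 (0.23), with median-ratio or quantile scaling (0.25 each) and with the trend on GC content and length removed (0.37). In those fits 3318, 3971, 3795 and 4027 genes in all were called higher, of 13927 tested or 13879 with the trend removed. A call in that direction was therefore common. Sos2 was no longer called once the trend was removed (-0.12, adjusted p = 0.125 by limma).

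Related genes of the set were then compared within each library. The ratio of Sos1 to Sos2 was 1.13 ± 0.0422 in P28-KO, 1.17 ± 0.0448 in P28-wt and 1.30 ± 0.126 in P10-wt, with P28-wt overlapping both of the others and P28-KO below all P10-wt libraries. The ratio of Rasa1 to Nf1 was 1.17 ± 0.0869 in P28-KO, 1.02 ± 0.0158 in P28-wt and 1.61 ± 0.228 in P10-wt, and its 3 groups did not overlap. These ratios are descriptions and were not tested.

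**Figure D3:**
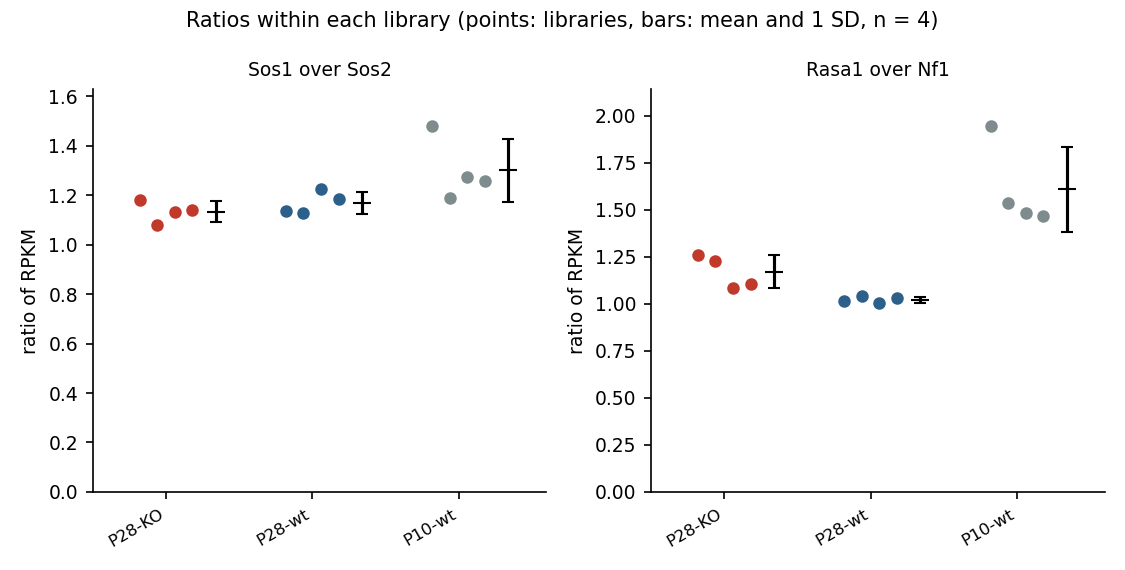
Ratio of Sos1 to Sos2 and of Rasa1 to Nf1, computed from RPKM (vertical axes, from 0), with 1 point per library of P28-KO, P28-wt and P10-wt and the mean with 1 SD (n = 4) as a bar to its right. The ratio of Rasa1 to Nf1 is 1.09 to 1.26 in P28-KO and 1.01 to 1.04 in P28-wt, against 1.47 to 1.95 in P10-wt.

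A wider list of 57 genes in 8 roles, of which 55 were tested (Spry3 was not found in the table and Cnksr1 lay below the filter), placed the 7 genes within the route. In P28-wt against P10-wt, 18 of the 55 genes rose and 14 fell, with a median log2 fold change of 0.01, beside 26.7% and 31.2% of all genes. Without the 7 genes, 18 of 48 rose and 10 fell, with a median of 0.16. Directions were mixed within most roles. Of the 6 Ras proteins 3 rose and 3 fell. Rras2 averaged 8.91 ± 0.930 RPKM in P28-wt and 26.3 ± 1.49 RPKM in P10-wt, while Mras rose to 52.6 ± 5.22 RPKM in P28-wt, against 31.6 ± 2.11 RPKM in P10-wt (SD, n = 4).

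Of the 8 exchange factors 3 rose and 3 fell, and others of them moved further than Sos1 and Sos2. Rasgrp2, a calcium and diacylglycerol regulated exchange factor that acts mainly on Rap, fell by 2.70 (6.38 ± 0.933 RPKM in P28-wt, 42.0 ± 4.94 RPKM in P10-wt). Rasgrp1, activated by diacylglycerol, rose by 1.69 (73.3 ± 5.90 RPKM in P28-wt, 23.0 ± 5.38 RPKM in P10-wt), and Rasgrf2, activated by calcium and calmodulin, rose by 0.71 (30.6 ± 1.84 RPKM in P28-wt, 18.6 ± 0.831 RPKM in P10-wt). Per length Sos1 and Sos2, at 5.35 and 4.58 RPKM in P28-wt, were expressed at lower levels than Rasgrp1 and Rasgrf2.

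Among the 10 GAPs 3 rose and 3 fell, and the smallest p after Rasa1 belonged to Rasal3 (log2 fold change 0.86), Rasal2 (0.35) and Rasa2 (-0.41). Araf, like Braf a Raf kinase, was at 32.5 ± 2.05 RPKM in P28-wt and 32.4 ± 1.27 RPKM in P10-wt and was not called. Shoc2, a scaffold that promotes Raf activation, was the only one of the 5 tested scaffolds that was called, and it fell by 0.85. Ksr1, the paralogue of Ksr2, was at 7.06 ± 0.875 RPKM in P28-wt and 8.16 ± 0.692 RPKM in P10-wt, and Lamtor3 at 20.1 ± 3.68 and 17.1 ± 1.48 RPKM.

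Downstream, Map2k1, which encodes MEK1, rose by 1.27 (98.8 ± 5.18 RPKM in P28-wt, 41.8 ± 9.07 RPKM in P10-wt) and Mapk3, which encodes ERK1, fell by 0.33. Of the 9 adaptors upstream of Sos 3 rose and 2 fell, and Gab2 fell by 1.21, Grb2 fell by 0.41 and Gab1 rose by 0.65. Of the 10 tested feedback inhibitors 5 were called higher and 0 lower, beside 26.7% and 31.2% of all genes, and the 5 that were not called had estimates from -0.54 (Dusp4) to 0.17 (Spred2). Dusp6, an ERK phosphatase, rose to 38.0 ± 8.36 RPKM in P28-wt, against 13.6 ± 1.08 RPKM in P10-wt, and Spred1 (log2 fold change 0.59) and Dusp5 (1.77) were the next by p.

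**Figure D4:**
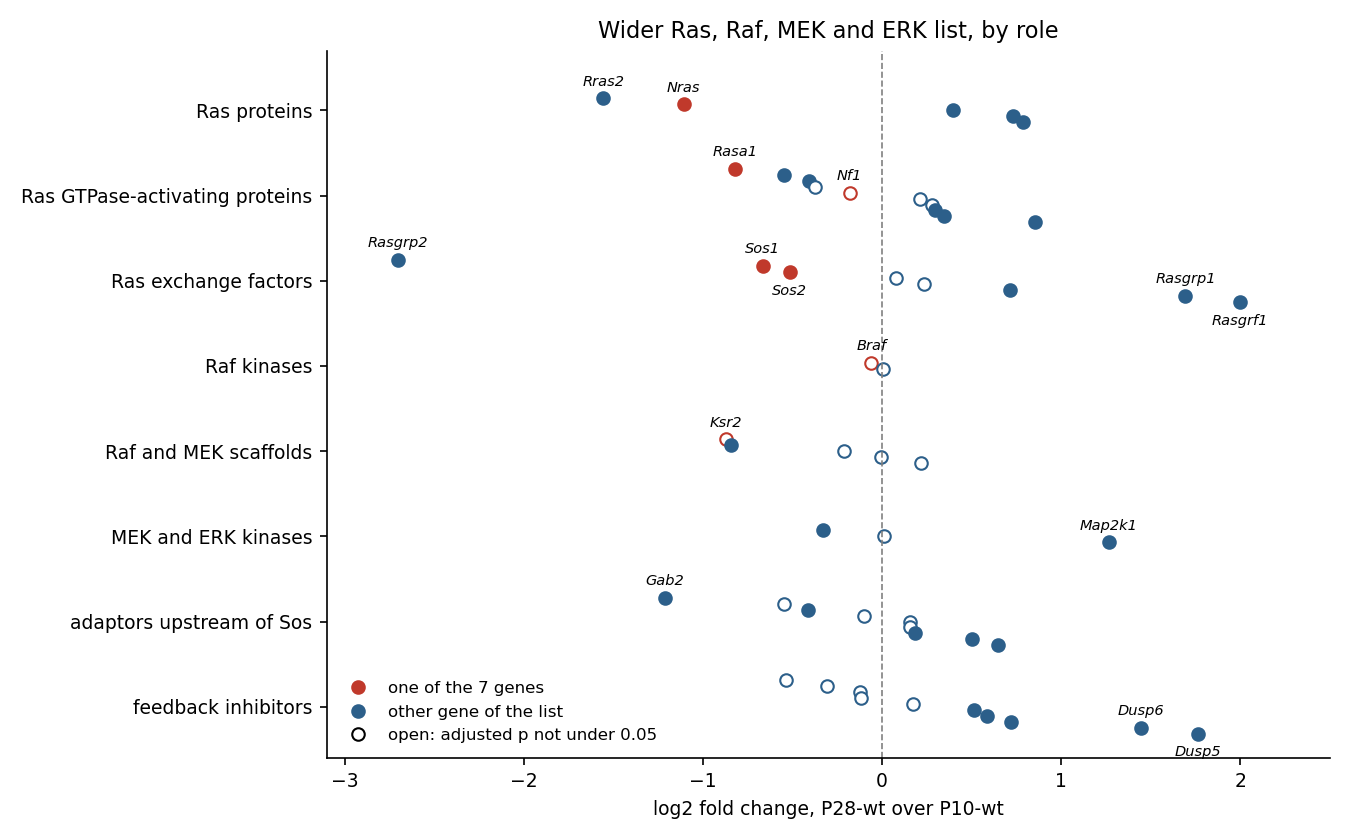
Log2 fold change of P28-wt over P10-wt (horizontal axis) for 52 of the 55 tested genes of the wider list, in 8 rows by role, with the 7 genes in red, the others in blue and open points where the adjusted p was not under 0.05. The Ras exchange factors span from -2.70 (Rasgrp2) to 1.998 (Rasgrf1), with Sos1 and Sos2 at -0.67 and -0.52.

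In P28-KO against P28-wt none of the 55 genes was called. At an unadjusted p under 0.05, 9 were higher and 6 lower, beside 4.27% and 8.11% of all genes. The 9 included 4 of the 7 genes, and without the 7 genes 5 of 48 were higher and 6 lower. Among the others, genes with the smallest p per role included Hras (-0.37, adjusted p = 0.382 by limma), Rras (-0.33), Rasa4 (-0.53), Rasal2 (0.21), Rasgrp1 (0.19), Rasgrf1 (0.21), Araf (-0.09), Cnksr2 (0.50), Shoc2 (0.16), Map2k2 (-0.30), Shc2 (-0.15), Frs3 (-0.26), Pebp1 (-0.34) and Dusp4 (0.53), as log2 fold changes. Pebp1, an inhibitor of Raf, was at 101.1 ± 10.8 RPKM in P28-KO and 129 ± 17.0 RPKM in P28-wt, with overlap.

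Likeness of pattern was measured as Pearson's r of log2 values over the 12 libraries against 12699 other genes, and because the libraries share the age contrast, r describes mainly who moves with age. Rasa1 was most like Trove2 (0.99), Sox5 (0.99) and Sos1 (0.99), and Sos1 most like Zbtb41, Sox5 and Fam117b (each 0.99). Nras was most like Frmd3 (0.996), Azin1 (0.996) and Fam19a2 (0.995), and Sos2 most like Copb1 (0.98), Gpd2 (0.97) and Rb1 (0.97). Nf1 was closest to Dmxl2 (0.95), Ltn1 (0.91) and Pdlim5 (0.90), and Braf to Fut9 (0.92), Atp8a1 (0.88) and Bmpr1b (0.88). Among the 7 themselves Rasa1, Sos1, Sos2 and Nras formed a tight set (r from 0.89 to 0.99), whereas Braf was unrelated to Nras (r = -0.09) and to Sos1 (0.07).

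Ksr2 followed another pattern, with Pdpk1 (r = 0.99), Mib1 (0.98) and Megf9 (0.98) as its nearest genes. All 3 were lowest in P28-wt replicate 2 and next lowest in P28-wt replicate 3, like Ksr2. Pdpk1, which encodes the kinase PDK1, had 7.52, 8.69, 9.22 and 10.1 RPKM in P28-KO libraries, 7.14, 1.64, 4.69 and 7.69 RPKM in P28-wt libraries, and 8.27, 8.76, 9.53 and 8.87 RPKM in P10-wt libraries. In P28-wt replicate 2, 74 of 12700 genes were below 0.5 of the lowest of the other libraries, against 1 to 18 in the libraries other than this one and P10-wt replicate 1, which had 114. Leaving replicate 2 out, the P28-wt values of Ksr2 were still below those of P28-KO, and the reason for the low values was not tested.

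**Figure D5:**
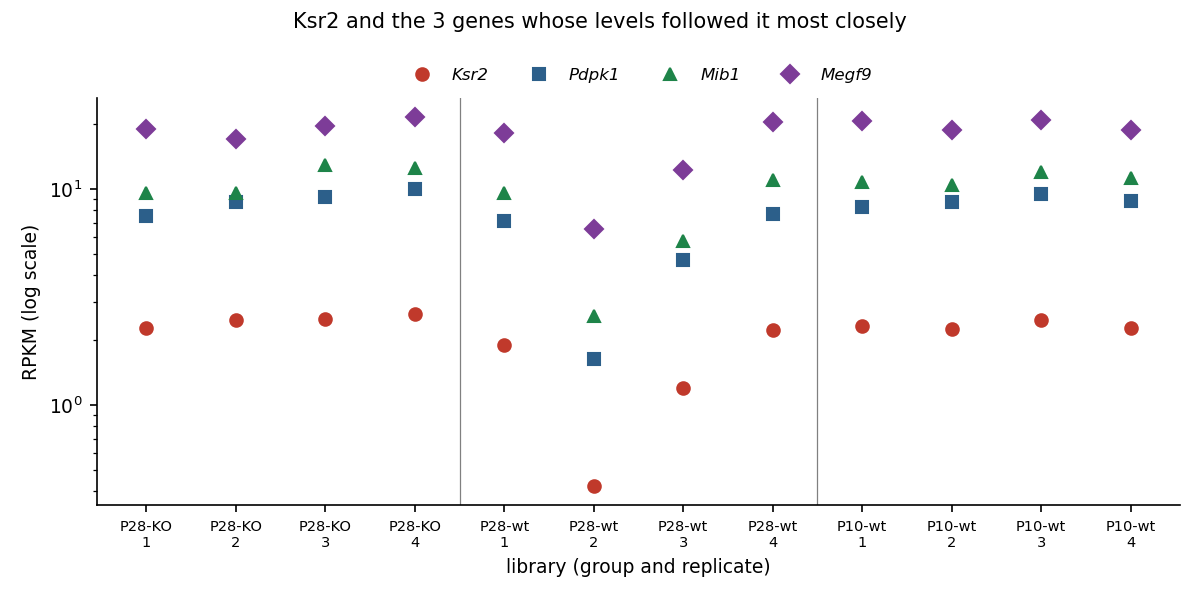
RPKM (log axis) of Ksr2, Pdpk1, Mib1 and Megf9 in each library, ordered by group (P28-KO, P28-wt, P10-wt) and replicate, with 1 marker per gene and library. All 4 genes have their lowest value in P28-wt replicate 2, Ksr2 at 0.421 RPKM and Pdpk1 at 1.64 RPKM.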

How the data were processed

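Messenger RNA was measured in 12 libraries, made with TruSeq RNA v2 and read paired-end. The authors aligned reads to mm10 with ELAND, kept those placed uniquely on RefSeq exons and junctions, and deposited 1 RPKM column per library, with no counts and no columns of comparisons. The submitters' processing notes name CASAVA 1.8.2, SAMtools 0.1.19 and Bowtie 0.12.8. For the other 12 samples, small RNA libraries, no table was used here. Unique placement can lower the values of genes with near-identical copies, and RPKM sets total mRNA equal between libraries. Steps in the low values gave only a rough depth, so no count test was run.

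R 4.3.3 with limma 3.58.1 took log2(RPKM + 0.1), two-sided, with each pair of groups fitted alone and the variance prior following mean expression, over the 13927 genes whose mean was 0.5 RPKM or more. Benjamini-Hochberg adjusted p under 0.05 was the threshold, and fold changes on this scale understate those of low genes. Alternatives were pseudocounts of 0.01 and 1, no filter or a mean of 2, median-ratio and quantile scaling, all 12 libraries in 1 fit, the regularized test of the study's methods (window 101, confidence 10, posterior above 0.6), removal by loess (span 0.3) of the trend on GC content and transcript length, a replicate block, and leaving out each library. Transcripts, UTRs and sequences were from RefSeq on GRCm38.p6. Python 3 with pandas and matplotlib made tables and plots.

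The 7 genes and all lists were chosen with earlier results of these data known. Besides the 7 genes, the text names for each role of the wider list up to 3 genes with the smallest p in the age comparison and up to 2 in the mutant comparison, and for each gene the 3 most like it over the libraries at a mean of 1 RPKM or more. A few genes that it picks are left out of the text, and the age value of Rasgrf1 is given outside it. Of 15 lists of cell type markers (64 genes), the report gives the sums and age calls for excitatory neurons. For the mutant comparison it gives myelin, astrocyte, endothelial and striatal markers, and other marker results are in the closing section.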

Additional observations from a re-analysis of the deposited data

Results flagged for a closer look

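In 3 of the 21 sets of 4 libraries (7 genes in 3 groups), 1 library lay far from the other libraries of its group by Dixon's test, where chance alone gives about 1 in 20. Sos1 was at 9.98 RPKM in P10-wt replicate 1, the next highest P10-wt library being at 8.20 RPKM. Braf was at 12.6 RPKM in P28-wt replicate 4, against 10.6 RPKM in the next, and at 10.9 RPKM in P10-wt replicate 1, against 11.6 RPKM in the next lowest. Without P10-wt replicate 1 the age difference of Sos1 was -0.59, and without P28-wt replicate 4 the mutant difference of Braf was 0.30, both on the log2 scale.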

How the results depend on the processing

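Of 168 member log2 fold changes with 1 library left out, 164 kept their direction and side of the threshold and 0 reversed, and of 210 under the other alternatives 193 did so and 5 reversed. All 5 reversals came with the GC and length trend removed: Nf1 to 0.20 and Braf to 0.34 in P28-wt against P10-wt, Nf1 to -0.11 and Sos1 to -0.002 in P28-KO against P28-wt, and Nf1 to 0.088 in P28-KO against P10-wt. The count of the 7 genes called higher in the age comparison was then 1 (Braf), beside 29.2% of all genes. In P28-KO against P28-wt the regularized test called 651 genes higher and 966 lower, 3 of the 7 genes higher, and 6 of the wider list higher and 5 lower, where limma called 0 of the wider list. In P28-KO against P10-wt, 1 of the 7 genes (Braf) was called higher with median-ratio scaling, quantile normalization, the regularized test and the trend removed, and 0 to 1 with a library left out. In the same order 3971, 3795 and 4323 of 13927 genes, and 4027 of 13879, were called higher over the table. With a library left out 3079 to 3339 were. A 6-base seed match was in 7 of the 7 genes, against 39.6% of all, which is likewise a description and not a test. In the age comparison Nf1 was called lower without P28-wt replicate 4 (-0.22) and Ksr2 without replicate 4 (-1.14) or replicate 1 (-1.07), and with all 12 libraries in 1 fit (-0.87, adjusted p = 0.0375), and the regularized test called both. The causes were not tested. Libraries that share a number in their column names had deviations correlated at r = -0.16 to 0.28, which cannot settle whether they were paired. With these numbers as a replicate block limma called 4 of the 7 genes in the age comparison and 0 in P28-KO against P28-wt. Over the table with age, 3625 genes were then higher and 4244 lower. The largest counting error among the 7 genes was that of Ksr2 in P28-wt replicate 2, at 12.8% for about 61 reads.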

Other observations

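Other marker lists also moved with age. All 6 microglial markers and all 6 myelin markers were called higher in P28-wt than in P10-wt, with median log2 fold changes of 1.01 and 5.23, and 5 of 6 inhibitory neuron markers were (1.06). Lower in P28-wt were all 4 markers of oligodendrocyte precursors (-0.86), all 3 of dividing cells (-2.74) and 3 of 4 of pericytes and meninges (-1.08). Of astrocyte markers 2 rose and 1 fell, of endothelial ones 1 rose and 2 fell, and of nuclear RNAs 3 rose and 1 fell. Of the 3 thalamic markers 2 fell, of the 3 hippocampal ones 1 fell, of the 3 striatal ones 1 rose and 2 fell, of the 3 choroid plexus ones 1 rose and 1 fell, and of the 3 blood markers 0 were called. In P28-KO against P28-wt none of these lists had a called marker, and at an unadjusted p under 0.05, beside the markers given in the report, 1 each was higher of oligodendrocyte precursors, of pericytes and meninges and of nuclear RNAs, and 1 each was lower of excitatory and of inhibitory neurons. The part of these cell types in the levels of the 7 genes was not tested.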
